A study of Arabidopsis thaliana with 8 samples.

Results

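The genes described here are those whose signal on the array was close to its starting level 1 h after dexamethasone in a LEC2-GR line, and at least doubled after 4 h both in that line and in wild type seedlings. They were taken from a series on seedlings of Arabidopsis thaliana, accession Ws-0, measured on ATH1 arrays, 1 array per sample. The transgenic seedlings carried 35S:LEC2-GR, in which the constitutive 35S promoter drives the seed transcription factor LEAFY COTYLEDON2 (LEC2) fused to the part of the glucocorticoid receptor that binds the hormone, so that the steroid dexamethasone lets the fusion enter the nucleus. There were 4 groups of 2 biological replicates, all of 8-day-old seedlings: the line after 1 h with dexamethasone, the line after 4 h with dexamethasone, non-transgenic Ws-0 seedlings after 4 h with dexamethasone, and the uninduced line, which carried the transgene and had no treatment. How many independent lines or seedlings went into a sample is not given in the sources used here. Untreated wild type and wild type after 1 h were not analysed here, so a rise in wild type is set against the uninduced line and joins dexamethasone, time and genotype, and the lateness of a rise was seen in the line alone.

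A probe set, the group of oligonucleotides that reads out a transcript, was a member when its highest group mean was at least 200 and when, on the scale log2(mean of 2 arrays + 45), the line at 4 h and the wild type were each at least 1 above the uninduced line, the line at 1 h was within 0.5 of the uninduced line, and the line and the wild type at 4 h were within 0.5 of each other. Small heat shock and other single genes, and the cytochrome P450, UGT and GST families, had been set aside by name, which removed 3 probe sets. Of 22746 probe sets that are not controls, 271 were members. The members' differences in these comparisons are therefore what chose them and are given without a test. Of the 271, 145 have 1 gene in the platform annotation, 7 have several and 119 are missing from it and stay unnamed, so that the set-aside genes could not be looked for among them.

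Making ribosomes is among the largest tasks of a growing plant cell. RNA polymerase I transcribes the precursor of the large ribosomal RNAs in the nucleolus, the small-subunit processome and box C/D ribonucleoproteins fold, modify and cut it, and further assembly factors build and export the large subunit. Most of these proteins are known from yeast, and their roles below are those of the yeast or human counterpart unless a plant name is given. Mitochondria and chloroplasts express genomes of their own with nuclear-encoded factors, among which pentatricopeptide repeat proteins, a large family in plants, bind and edit or process organelle transcripts.

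The sets of conditions left 1188 probe sets with a rise of at least 1 in the line at 4 h among the 12381 that reached the minimum level. Of these, 755 also rose by at least 1 in wild type, and in 640 of them the line and the wild type were within the band of each other. At 1 h, 364 of the 640 were already above the band, 2 were below it and 274 lay within it, which are the 271 members and the 3 that were set aside. Values just inside the threshold were 1.00 at 4 h and 1.00 in wild type for AT5G38830, 1.00 and 1.06 for AT2G28790, and 1.03 and 1.00 for AT5G27760. Just outside it, AT4G20980 had 1.06 at 4 h and 0.999 in wild type, AT4G24350 had 0.998 and 1.14, and AT4G15640 had 1.13 and 0.997.

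Across the series, every array had been scaled to the same trimmed mean, and array medians lay between 170 and 191. Replicates correlated at 0.969 to 0.98 over the 15026 tested probe sets on the log2 scale, and at 0.954 to 0.987 over the members. The GAPDH control probe sets, read as a ratio of 3′ to 5′ signal for the state of the RNA, gave 1.59 to 3.37, with both ends in induced samples of the line, and the same ratio for actin ran from 6.9 to 13.4, with both ends in the uninduced line. A remark in the record of 4 h replicate 2 says that background was high in a region of the scan. The records of wild type and the uninduced line hold a hybridization time and those of the 1 h and 4 h samples do not. If that marks a separate run, it cannot be told apart from group in the 4 h and 1 h comparisons with the uninduced line. Wild type and the uninduced line are alike in this field, but not in the fluidics module recorded. The module was 3 and 4 for the uninduced line, 1 and 2 for wild type and for 1 h, and 3 for 4 h replicate 1. For 4 h replicate 2 it is blank. Module and group cannot be told apart between wild type and the uninduced line. LEC2 itself has no named probe set, so the labels were not checked against it.

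The seedlings also changed in the make-up of their markers. All 6 green tissue genes with a probe set of their own, among them RCA, LHCB4.2 and PRK, which serve photosynthesis, were called lower at 4 h and in wild type in limma. Of all tested probe sets, 16.8% were called lower in the line at 4 h and 14.3% in wild type. With quantile normalization 3 of the 6 were called lower in each comparison, and with no filter on low signal 3 of the 6 in wild type. Their summed signal was 183382 and 189494 in the uninduced line, 158304 and 132987 at 1 h, 108835 and 119918 in the line at 4 h, and 118184 and 122522 in wild type. Of 3 root genes, the peroxidases AT5G17820 and AT3G01190 were called higher and PYK10 lower in the line at 4 h, and in wild type none passed limma, nor an unadjusted p under 0.05. The seed gene M10 had 4.1 and 4.8 in the uninduced line, 7.7 and 14.3 at 1 h, 471 and 423 in the line at 4 h and 11.9 and 5.4 in wild type. The seed gene LEA18 averaged 50.5 in the uninduced line, 201 at 1 h, 119.9 in the line at 4 h and 24.0 in wild type. Less RNA per cell and fewer cells of a type cannot be told apart in whole seedlings, and the part of these markers in the members' rise was not tested.

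The rule bounds the members' values at 1 h and at 4 h, so the medians here describe what was chosen. The rises ran from 1.00 to 3.97 in the line at 4 h and from 1.00 to 3.8 in wild type. Relative to each member's uninduced mean, the median member stood at 0.18 and 0.33 on the 1 h arrays, at 1.42 and 1.37 on the 4 h arrays of the line, and at 1.34 and 1.29 on the wild type arrays, with the uninduced arrays at -0.06 and 0.06. The 1 h arrays stood slightly above the uninduced ones, and all 4 arrays at 4 h far above both. Over all tested probe sets the same medians lay between -0.01 and 0.04 on every array. In differences of group means, the members had medians of 1.37 for the line at 4 h, 1.31 for wild type and 0.27 for the line at 1 h, against -0.01, 0.02 and 0.00 over all tested probe sets.

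**Figure D1:**
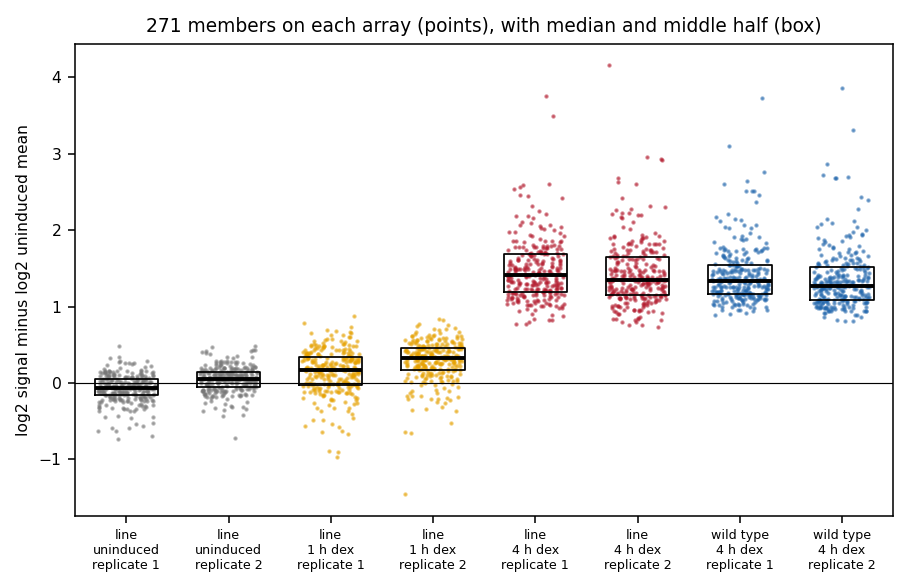
Signal of each of the 271 members on each of the 8 arrays, as log2(signal + 45) minus log2(uninduced mean + 45) on the vertical axis, 1 point per member, with the median (thick line) and the quartiles (box). The medians are -0.06 and 0.06 in the uninduced line, 0.18 and 0.33 at 1 h, 1.42 and 1.37 in the line at 4 h and 1.34 and 1.29 in wild type.

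All 271 members had both 4 h arrays of the line above both uninduced arrays, and all 271 had both wild type arrays above them. Among all tested probe sets, 33.2% were so in the line at 4 h and 35.0% in wild type. The rule used both comparisons, so nothing is read from these counts. In limma, fitted to the 15026 probe sets above a floor of signal, all 271 passed the floor and were called higher in the line at 4 h and in wild type, where 18.8% and 16.8% of all tested probe sets were called higher, again with the rule in use. At 1 h, 6 members were called higher and none lower, with 9.50% of all tested probe sets called higher and 7.16% lower. Between the line and the wild type at 4 h none was called in either direction, with 3.42% called higher and 3.21% lower. At an unadjusted p under 0.05 in limma, 55 members were higher and 1 lower at 1 h, and 5 were higher and 5 lower in the line than in wild type at 4 h.

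Within the band allowed at 1 h the members were not spread evenly about zero. The line's mean at 1 h was above the uninduced mean for 242 members and below it for 29. In 121 members both 1 h arrays lay above both uninduced arrays and in 3 both lay below, against 27.1% and 26.9% of all tested probe sets. The rule fixed the limits of this difference, and the conditions at 4 h use the same uninduced arrays. The 6 members called at 1 h were AT3G52040, AT5G20160, AT5G14050, BGLU44, ATMDAR2 and 1 unnamed probe set, with differences of 0.45 to 0.48. They are named as the whole of a small count, after their values were seen.

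The rises were moderate for most members. The smaller of a member's rises in the line and in wild type was under 1.5 in 206 of the 271 and at least 2, which is 4-fold, in 14. Of those 14, 12 are unnamed probe sets and 2 have a gene name. The unnamed members had medians of 1.45 in the line at 4 h and 1.39 in wild type, and the single-gene members 1.33 and 1.26. The highest group mean of a member ran from 201 to 16183, with a median of 948, and the top value belongs to an unnamed probe set. Its signals were 2249 and 3028 in the uninduced line, 3134 and 3367 at 1 h, 14730 and 16607 in the line at 4 h, and 14755 and 17611 in wild type.

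**Figure D2:**
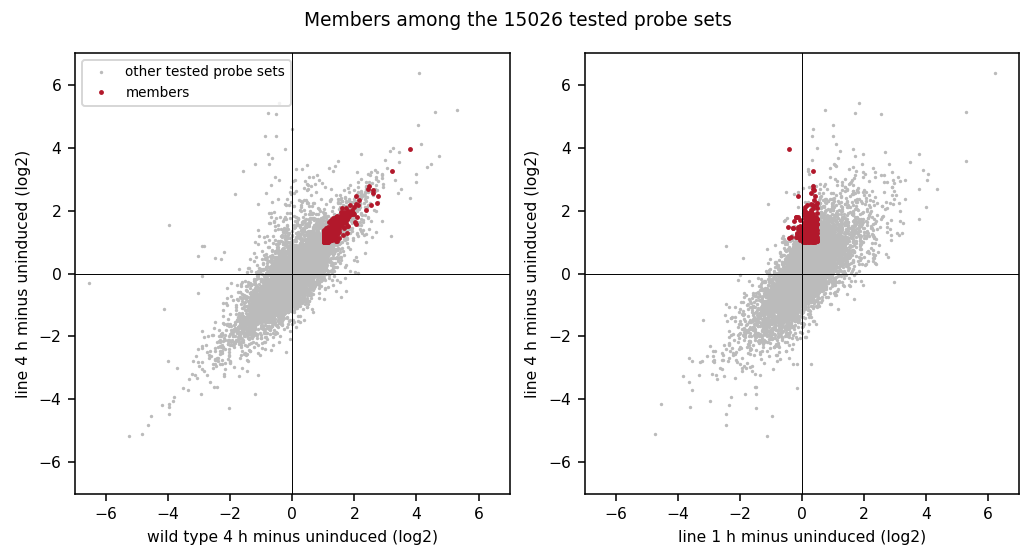
Each of the 15026 tested probe sets as a point, members in red; the vertical axis is the log2 difference of the line at 4 h minus uninduced, and the horizontal axis is wild type minus uninduced (left) or the line at 1 h minus uninduced (right). All axes share the uninduced arrays, and the straight edges of the red cloud at 1 and at 0.5 are the limits that chose the members.

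The single-gene member with the largest rise was AT2G41730, for which no role is given here. Its signals were 110.4 and 147 in the uninduced line, 151 and 18.3 at 1 h, 2300 and 3060 in the line at 4 h and 2269 and 2475 in wild type. The 4 arrays at 4 h were all far above the other 4, and 1 of the 1 h arrays was the lowest of all. The log2 difference was 3.97 in the line at 4 h and 3.8 in wild type. Its probe set carries the suffix of those that can bind other transcripts too, the only such case among the members, while 14 others carry the suffix of sets shared by related transcripts and 256 neither. Next came AT2G47890, a zinc finger protein of the B-box family, which includes regulators of light responses and flowering. It gave 20.3 and 83.2 in the uninduced line, 19.7 and 126 at 1 h, 271 and 432 in the line at 4 h and 541 and 365 in wild type, with differences of 2.03 and 2.36. Its replicates lay far apart before 4 h, and no array of the uninduced line or of 1 h reached the lowest array of the 4 h groups. Over the 30 single-gene members with the largest smaller rise, the difference ran from 1.48 to 3.97 in the line at 4 h and from 1.45 to 3.8 in wild type. A role was assigned by hand to 21 of the 30, and 9 of those 21 serve ribosomal RNA synthesis or ribosome assembly.

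Roles could be given to 85 of the 145 single-gene members, from general knowledge and after the members were known, and 60 were left without one. Of the 85, 29 belong to ribosomal RNA synthesis, its processing and the assembly of both subunits, and 37 with the DEAD-box RNA helicases, which unwind RNA. With transfer RNA, spliceosomal and cytosolic ribosomal proteins the count is 48, where coilin was put with the spliceosomal ones. These counts describe the members and were not tested against the rest of the array. Members named from here on that are not among the 30 leading ones were chosen by role.

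**Figure D3:**
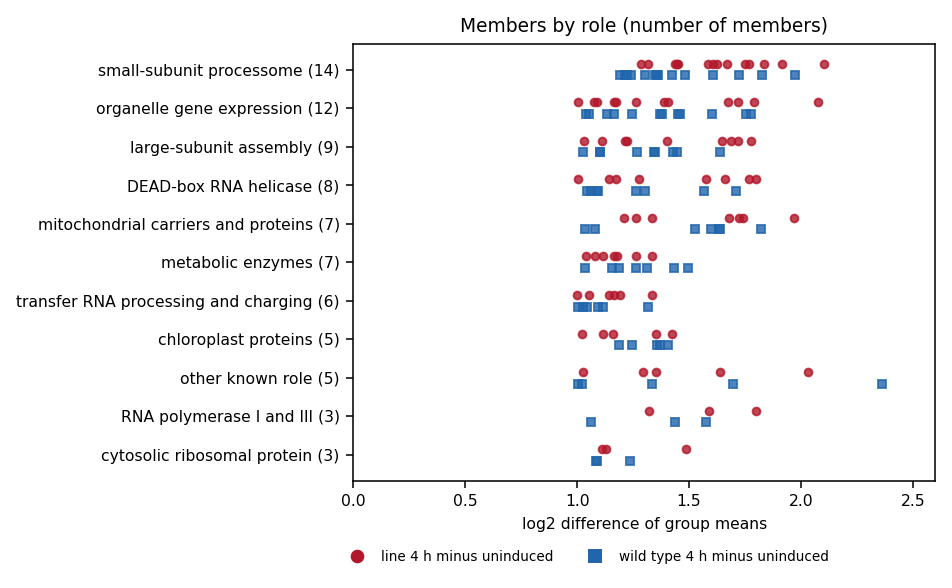
Log2 difference of group means for the members with a role, by role (number of members after each name), for roles with at least 3 members; circles are the line at 4 h minus uninduced and squares wild type minus uninduced. All points lie at or above 1 by choice, and the processome members lie between 1.28 and 2.1 in the line at 4 h and between 1.19 and 1.98 in wild type.

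RNA polymerase I, the enzyme of ribosomal RNA, was represented by both of its large subunits. NRPA2, the second-largest subunit, had 439.9 and 410.1 in the uninduced line, 415 and 468 at 1 h, 1487 and 1256 in the line at 4 h and 1404 and 1305 in wild type. The 1 h arrays lay around the uninduced ones, and the line and the wild type at 4 h overlapped. NRPA1, the largest subunit, had 145 and 203 in the uninduced line, 223 and 215 at 1 h, 711 and 727 in the line at 4 h and 571 and 526 in wild type, where both wild type arrays were below both 4 h arrays of the line. NRPC2, the second-largest subunit of RNA polymerase III, which makes transfer RNAs and the smallest ribosomal RNA, differed by 1.32 in the line at 4 h and by 1.06 in wild type. Of 12 subunits of nuclear RNA polymerases with a probe set, found by symbol after the members were known, these 3 are members. Among the other 9, limma called 3 higher in the line at 4 h and 2 in wild type, and none lower, also at an unadjusted p under 0.05. Of all tested probe sets, 18.8% were called higher in the line at 4 h and 16.8% in wild type. The 9 had medians of 0.50 and 0.40. NRPC1, the largest subunit of RNA polymerase III, was not called in limma. It differed by 0.50 (adjusted p = 0.0996) in the line at 4 h and by 0.57 (adjusted p = 0.065) in wild type. Without 4 h replicate 1, 1 of the 9, NRPB6B, was called lower at 4 h, and without wild type replicate 2 the count called higher in wild type was 1. NRPB7 differed by 1.04 (adjusted p = 0.0014) and NRPB12 by 0.88 (adjusted p = 8.9e-05) in the line at 4 h in limma. Both carry the symbol of an RNA polymerase II subunit, which does not tell whether the other polymerases share it.

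Of the small-subunit processome, the large particle that forms on the ribosomal RNA precursor, 14 members were found. AT3G06530, the counterpart of yeast Utp10, had 201 and 256 in the uninduced line, 201 and 297 at 1 h, 1083 and 1181 in the line at 4 h and 1079 and 982 in wild type. Its 1 h arrays overlapped the uninduced ones, and its 4 h arrays lay just above those of wild type, at differences of 2.1 and 1.98. AT4G28450, the counterpart of Sof1, had 316 and 382 in the uninduced line, 365 and 484 at 1 h, 1637 and 1246 in the line at 4 h and 1301 and 1214 in wild type. In this gene the line and the wild type overlapped at 4 h, and both lay above every earlier array.

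Some partners within a complex were members together. Mpp10, Imp3 and Imp4 bind one another within the processome in yeast. Their counterparts AT5G66540, AT5G15750 and IMP4 differed by 1.67, 1.45 and 1.59 in the line at 4 h and by 1.48, 1.22 and 1.35 in wild type. IMP4 had 470.4 and 533 in the uninduced line, 599 and 666 at 1 h, 1514 and 1676 in the line at 4 h and 1425 and 1268 in wild type. All 3 had wild type means below those of the line at 4 h, within the band of the rule. Both counterparts of the RNA cytidine acetyltransferase Kre33, which modifies small-subunit ribosomal RNA, were members as well. AT3G57940 had 157 and 154 in the uninduced line, 181 and 188 at 1 h, 639.8 and 702 in the line at 4 h and 695 and 638 in wild type, and differed by 1.84 and 1.83. AT1G10490, its close relative, differed by 1.44 and 1.21.

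The other processome and small-subunit members were RRP7 (AT5G38720), YAO, known for its part in plant embryos and gametes and the counterpart of Rrp9, and the counterparts of Utp18 (AT5G14050), Utp22 (AT1G63810), Nop14 (AT1G69070), Emg1 (AT3G57000) and Tsr1 (AT1G42440). YAO had 272 and 324 in the uninduced line, 269 and 379 at 1 h, 1057 and 1160 in the line at 4 h and 944 and 729 in wild type. Both wild type arrays were below both 4 h arrays of the line, and all 4 were above the other arrays. AT1G42440 had 1340 and 744 in the line at 4 h, 792 and 726 in wild type and 302 and 313 in the uninduced line, so that 1 of its 4 h arrays was close to wild type and the other well above it. AT1G63810 was the 1 member of this group with a 1 h mean below the uninduced mean, at a difference of -0.04. Of the box C/D ribonucleoproteins, which guide the methylation of ribosomal RNA, the counterparts of Nop58 (AT3G05060) and Snu13 (AT5G20160) were members. AT5G20160 was among the brighter members, with 2627 and 2270 in the uninduced line, 2978 and 3722 at 1 h, 6939 and 6419 in the line at 4 h and 6881 and 6502 in wild type.

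**Figure D4:**
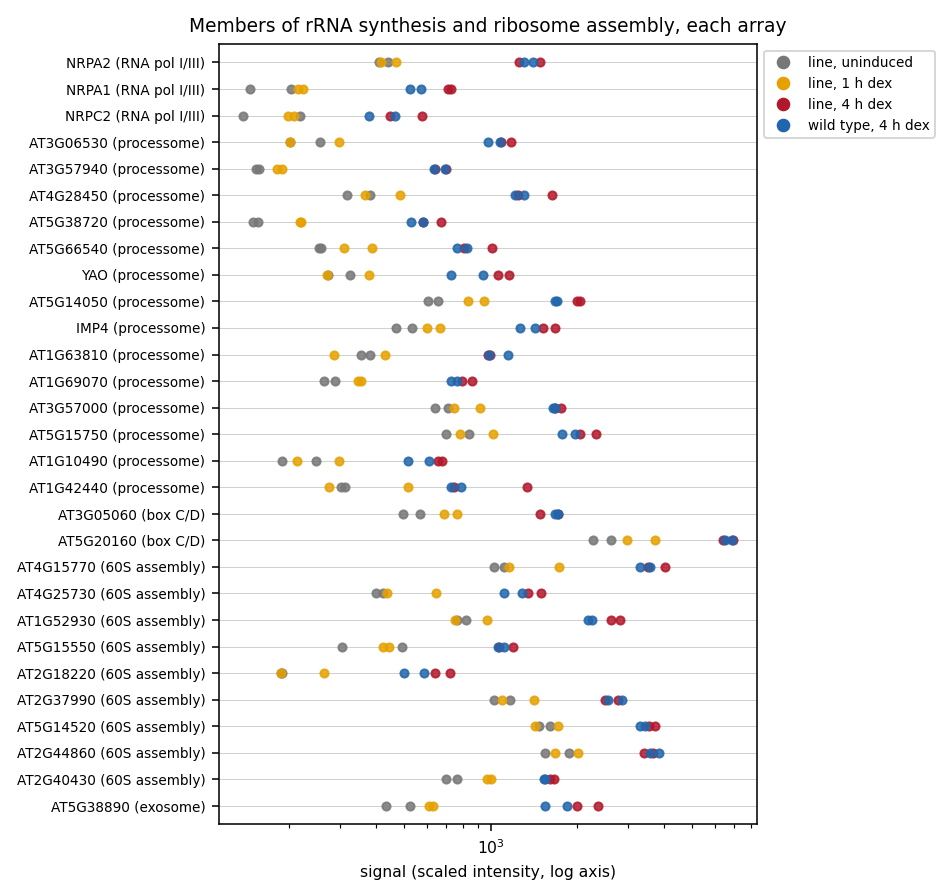
Signal (log axis) on each array for the 29 members of ribosomal RNA synthesis and ribosome assembly, 1 row per gene and 2 points per group, with 60S standing for the large subunit. In every row the points of the line and the wild type at 4 h lie to the right of those of the uninduced line and of 1 h.

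Large-subunit assembly was represented by 9 members, with differences of 1.03 to 1.78 in the line at 4 h and 1.03 to 1.64 in wild type. AT4G15770, the counterpart of Nip7, had 1030 and 1116 in the uninduced line, 1160 and 1727 at 1 h, 3516 and 4046 in the line at 4 h and 3579 and 3288 in wild type. The higher of its 1 h arrays stood well above the uninduced arrays, and the other close to them. AT1G52930, a counterpart of Brx1, had 764 and 819.6 in the uninduced line, 752 and 970.2 at 1 h, 2803 and 2622 in the line at 4 h and 2175 and 2242 in wild type. Pescadillo (AT5G14520) and the counterpart of WDR12 (AT5G15550) work in 1 complex, which matures the RNA of the large subunit, and differed by 1.21 and 1.4 in the line at 4 h and by 1.1 and 1.35 in wild type. The remaining ones were counterparts of Spb1 (AT4G25730), Noc2 (AT2G18220), Rrs1 (AT2G37990), Rlp24 (AT2G44860) and Nop53 (AT2G40430, also called SMO4). CSL4 (AT5G38890), a subunit of the exosome, which trims RNA from its 3′ end, had 524 and 434 in the uninduced line, 612 and 633 at 1 h, 2000 and 2354 in the line at 4 h and 1839 and 1548 in wild type. Its 1 h arrays were both above its uninduced arrays, by 0.35 in the difference of means, and the 4 h arrays of the line both above those of wild type.

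A list of 67 genes of ribosome biogenesis, written from general knowledge once the members were known, had 42 genes with a probe set of their own, and all 42 were tested. Since the list was written with the members in view, the 27 members in it are not a result. The other 15 were picked with the same view, so their counts are a description and no independent check. Each of the 15 had missed at least 1 condition of the rule, some of them narrowly, such as AT5G08180 at 0.519 for 1 h. Of these, limma called 12 higher in the line at 4 h and 12 in wild type, and none lower, where 18.8% and 16.8% of all tested probe sets were called higher. Their fitted log2 differences had medians of 0.93 and 0.77, against -0.01 and 0.03 over all tested probe sets. At 1 h 2 of the 15 were called higher, where 9.50% of all tested probe sets were. Between the line and the wild type at 4 h none of the 15 was called, where 3.42% of all tested were called higher and 3.21% lower. At an unadjusted p under 0.05 in limma, none was lower in either comparison with the uninduced line at 4 h or in wild type, and 2 were higher in the line than in wild type.

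These 15 lay outside the members for different reasons. A rise under the threshold in the line or in wild type kept out 9, the 1 h value alone kept out 4, the difference between the line and the wild type alone kept out 1, and both the rise and that difference kept out 1. The 2 of the 15 with the largest rises were the second Brx1 counterpart, AT3G15460, and AT3G22660, the counterpart of Ebp2 in large-subunit assembly. AT3G15460 had 149 and 308 in the uninduced line, 356 and 369.5 at 1 h, 1264 and 1259 in the line at 4 h and 1334 and 1075 in wild type. Its fitted difference was 2.32 (SE 0.23, adjusted p = 1.2e-06) in the line at 4 h and 2.25 (SE 0.23, adjusted p = 2.5e-06) in wild type in limma. AT3G22660 had 187 and 286 in the uninduced line, 269 and 480.5 at 1 h, 1215 and 1336 in the line at 4 h and 1228 and 1094 in wild type. Its difference was 2.25 (adjusted p = 1.8e-06) in the line at 4 h and 2.12 (adjusted p = 4.7e-06) in wild type, with SE 0.23 in both. For both genes the 4 arrays at 4 h lay above all the others, and the 1 h arrays stood above both uninduced arrays in AT3G15460 and above at least 1 of them in AT3G22660.

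The third protein of the pescadillo complex, BOP1 (AT2G40360), was kept out by its 1 h value, and is named here for that complex. It had 1186 and 1417 in the uninduced line, 1924 and 1954 at 1 h, 4071 and 4078 in the line at 4 h and 3565 and 3463 in wild type. Its difference at 1 h was 0.57 (adjusted p = 0.007, limma), at 4 h 1.62 (adjusted p = 2.1e-07) and in wild type 1.41 (adjusted p = 1.2e-06). The 3 genes of the list not called in the line at 4 h, chosen by that, were DIM1A, a dimethyltransferase of small-subunit ribosomal RNA, the GAR1-like AT5G18180 and the RIO2-like kinase AT3G51270, with adjusted p of 0.0897, 0.498 and 0.964 in limma. None of these 3 was called in wild type either. The difference of AT5G18180 rests on 1 array, as its signals were 30.6 and 181 in the line at 4 h against 131 and 118 in the uninduced line.

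**Figure D5:**
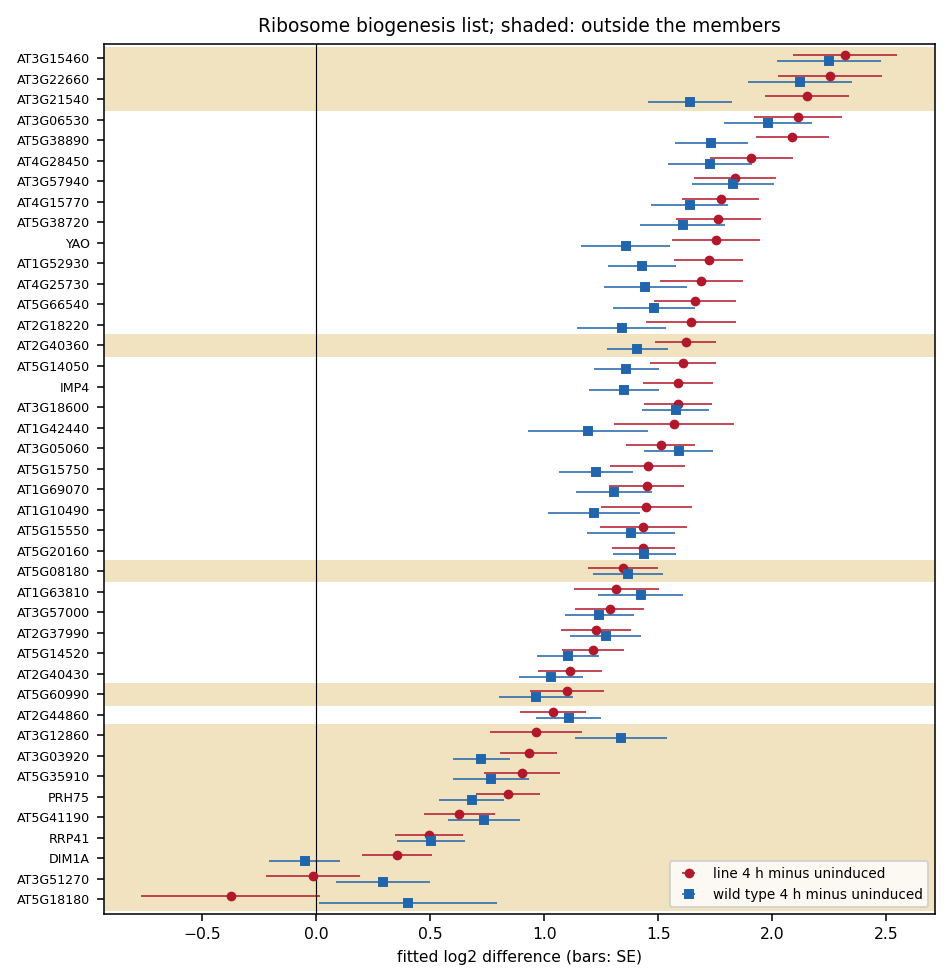
Fitted log2 difference (horizontal axis, bars SE from limma) for the 42 tested genes of the ribosome biogenesis list, circles the line at 4 h minus uninduced and squares wild type minus uninduced. Rows with a shaded background are the 15 genes outside the members, of which 12 were called higher in each comparison.

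The DEAD-box RNA helicases among the members numbered 8. RH51 (AT3G18600) had 843 and 1087 in the uninduced line, 1097 and 1203 at 1 h, 2852 and 3080 in the line at 4 h and 3022 and 2869 in wild type. RH34 (AT1G51380) was dimmer, with 96.2 and 126 in the uninduced line, 92.5 and 91.8 at 1 h, 608 and 388 in the line at 4 h and 452 and 480.3 in wild type. For RH34 the 1 h arrays were both below the uninduced ones, and the wild type arrays fell between the 2 arrays of the line at 4 h. The others were RH57, RH29, RH16, RH17, RH52 and RH11, with differences of 1.01 to 1.77 in the line at 4 h and 1.04 to 1.31 in wild type.

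Transfer RNA was served by 6 members. The guanine-N7 methyltransferase of transfer RNA consists of a catalytic and a second subunit, and both were members. The catalytic subunit AT5G24840 had 409 and 352 in the uninduced line, 551 and 544 at 1 h, 829.7 and 849.7 in the line at 4 h and 886 and 843 in wild type. Its partner TRM82 had 265 and 296 in the uninduced line, 348 and 376 at 1 h, 810.1 and 743 in the line at 4 h and 647 and 606 in wild type. Both had 1 h arrays above the uninduced arrays. The endonuclease TRZ3, a dihydrouridine synthase (AT4G38890), the cytosine methyltransferase TRM4B (AT2G22400) and a cysteinyl-tRNA synthetase (AT5G38830) differed by 1.00 to 1.19 in the line at 4 h. Of the cytosolic ribosomal proteins, S11 (AT4G30800), S27 (AT2G45710) and L9 (AT4G10450) were members, at 1.11 to 1.49 in the line at 4 h and 1.09 to 1.24 in wild type. Grouped by hand under spliceosomal proteins were the Sm protein D1 (AT3G07590) and coilin (AT1G13030). Coilin organises the Cajal bodies beside the nucleolus and is not itself a part of the spliceosome. In the line at 4 h coilin differed by 1.27 and D1 by 1.01.

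Gene expression in organelles was the next largest group, with 12 members. Of these, 8 are pentatricopeptide repeat proteins. OTP81, which edits chloroplast transcripts, had 23.7 and 60.2 in the uninduced line, 93.5 and 59.2 at 1 h, 387 and 258 in the line at 4 h and 213 and 225 in wild type, and differed by 2.08 and 1.6. The 4 h arrays of the line were both above those of wild type, and the uninduced signals were among the lowest of the members. Of 8 genes named for organelle transcript processing, 4 passed the signal filter. Of all tested probe sets, 18.8% were called higher in the line at 4 h and 16.8% in wild type. Among the 3 that passed and are not members limma called OTP84 alone higher, by 0.78 (adjusted p = 0.029) in the line at 4 h and by 0.89 (adjusted p = 0.017) in wild type. The call at 4 h ended with no filter and without 4 h replicate 1 or either uninduced array, and the call in wild type ended with no filter and without uninduced replicate 2 or wild type replicate 2. The mitochondrial polynucleotide phosphorylase AT5G14580, which degrades and trims mitochondrial RNA, had 88.6 and 44.6 in the uninduced line, 50.4 and 53.8 at 1 h, 277 and 404 in the line at 4 h and 328 and 348 in wild type. The ERA-like GTPase AT1G30960 had 109.7 and 111 in the uninduced line, 97.7 and 188 at 1 h, 493 and 438 in the line at 4 h and 465 and 492 in wild type; the bacterial protein ERA helps to assemble the small ribosomal subunit. Also in this group were the mitochondrial ribosomal protein S9 (AT3G49080), with differences of 1.01 and 1.13, and mTERF9 (AT5G55580), with 1.17 and 1.24.

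A further 7 members act in mitochondria. AT5G02050 and AT5G05990, both of the mitochondrial glycoprotein family, differed by 1.97 and 1.68 in the line at 4 h and by 1.82 and 1.53 in wild type. AT5G02050 had 482 and 542 in the uninduced line, 514 and 568 at 1 h, 2180 and 2095 in the line at 4 h and 1873 and 1972 in wild type. Its 1 h arrays lay across the uninduced ones, and its replicates agreed closely at 4 h. Metabolite carriers of the mitochondrial carrier family made up 4 of the 7. Among them AT3G53940 had 115 and 62.6 in the uninduced line, 99.4 and 95.9 at 1 h, 372 and 434 in the line at 4 h and 349.8 and 393 in wild type. AT3G20240 had 198 and 155 in the uninduced line, 194 and 247 at 1 h, 733 and 642 in the line at 4 h and 646 and 605 in wild type. A subunit of cytochrome c oxidase, 5c (AT5G61310), differed by 1.34 in the line at 4 h and by 1.08 in wild type.

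Chloroplast members were few and of different kinds, while photosystem genes of the green tissue list were lower in the same samples. They were the lipocalin CHL, CURT1D (AT4G38100), a thylakoid membrane protein, PWD, a kinase that phosphorylates starch on its way to breakdown, a Rubisco accumulation factor (AT3G04550) and TAAC, an adenine nucleotide carrier of the thylakoid. CHL had 821 and 850.3 in the uninduced line, 1132 and 1018 at 1 h, 2357 and 2273 in the line at 4 h and 2065 and 2516 in wild type. PWD had 553 and 486 in the uninduced line, 501 and 403 at 1 h, 1235 and 1202 in the line at 4 h and 1276 and 1556 in wild type. One of its 1 h arrays was below both uninduced arrays, and 1 wild type array stood above the other 4 h arrays.

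Among metabolic enzymes were 7 members. Monodehydroascorbate reductase ATMDAR2, which recycles ascorbate, had 1221 and 1280 in the uninduced line, 1988 and 1544 at 1 h, 2644 and 2584 in the line at 4 h and 3558 and 3340 in wild type. Both wild type arrays were above both 4 h arrays of the line, and both 1 h arrays above the uninduced ones. Argininosuccinate synthase (AT4G24830), a branched-chain aminotransferase (AT1G50110) and indole-3-glycerol phosphate synthase (AT2G04400), which make arginine, the branched-chain amino acids and tryptophan, differed by 1.17, 1.33 and 1.18 in the line at 4 h and by 1.19, 1.5 and 1.04 in wild type. The E2 subunit of 2-oxoglutarate dehydrogenase (AT5G55070) and a class III peroxidase (AT5G64100) completed the group, with BGLU44. BGLU44, a beta-glucosidase, had 2322 and 2474 in the uninduced line, 3404 and 3313 at 1 h, 5314 and 4915 in the line at 4 h and 5521 and 6109 in wild type. Of 20 beta-glucosidase genes with a probe set, 11 were tested. Of all tested probe sets, 18.8% were called higher and 16.8% lower in the line at 4 h, and 16.8% and 14.3% in wild type. Among the 10 beta-glucosidases that are not members limma called 4 higher and 3 lower in the line at 4 h, and 4 higher and 2 lower in wild type. With the stricter filter on low signal 1 was called lower in each comparison. Without 4 h replicate 2 the count called higher at 4 h was 2, and without uninduced replicate 2 or wild type replicate 1 the count called lower in wild type was 1. BGLU28 (1.92, adjusted p = 0.0019) and BGLU40 (1.47, adjusted p = 1.5e-04) rose furthest in the line at 4 h, and BGLU45 (-2.16, adjusted p = 1.0e-04) and BGLU46 (-1.11, adjusted p = 0.0048) fell furthest.

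Whether the line or the wild type had the higher mean at 4 h was limited by the band of 0.5 in the rule, and none of the members was called between them, so the counts by role are a description. Over all members the mean of the line at 4 h was above that of wild type in 172 of 271, or 63.5%. It was above in 13 of the 14 processome members, 7 of the 9 of large-subunit assembly, all 3 polymerase subunits, CSL4 and neither of the 2 box C/D proteins, which makes 24 of the 29 members of ribosomal RNA synthesis and ribosome assembly. It was above in 7 of the 8 DEAD-box helicases, 6 of the 7 mitochondrial carriers and proteins, 6 of the 12 members of organelle gene expression, 3 of the 6 of transfer RNA, 2 of the 5 chloroplast proteins and 1 of the 7 metabolic enzymes. No test of a difference between roles was made.

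Of the leading 30, 9 have no role here. AT5G11240 had 143 and 157 in the uninduced line, 205 and 247 at 1 h, 695 and 687 in the line at 4 h and 697 and 708 in wild type. Its 4 arrays at 4 h lay close together, and both 1 h arrays were above the uninduced ones. The others were AT2G41730, AT3G52040, AT2G44510, AT4G31210, AT2G41810, AT5G47455, AT1G48570 and AT4G38410. AT3G52040 had 1086 and 1398 in the uninduced line, 1760 and 1751 at 1 h, 4093 and 3537 in the line at 4 h and 3890 and 3896 in wild type. DOMINO1 (AT5G62440), known for its need in embryo development, is also among the 30 and had 323 and 379 in the uninduced line, 380.2 and 541 at 1 h, 1276 and 1102 in the line at 4 h and 1364 and 1114 in wild type. For DNA replication, PRL, a subunit of the MCM helicase that opens the double helix, differed by 1.39 in the line at 4 h and by 1.19 in wild type.

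The named members lay on all 5 nuclear chromosomes, with 23 to 35 on each, where 1962 to 3451 single-gene probe sets of the array lie. No 2 of them were neighbours among the 5878 adjacent gene pairs that both have a probe set of their own. The 119 unnamed members could not be placed, and neither result was tested.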

How the data were processed

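Expression was measured in 8 seedling samples on ATH1 arrays from biotin-labelled polyA RNA, per the labels. In the deposited table each probe set has a linear intensity for every array, which the authors obtained with MAS5 (no version given), per the submitters' processing notes. The arrays share a trimmed mean of 500.05, and no detection calls were used. The instrument records were read for run fields only. Genes were named from the platform annotation and RefSeq (TAIR10.1, names only), and no sequence is printed.

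Values became log2(intensity + 45). Member differences are between log2(group mean + 45), fold changes on this scale understating those of dim genes. For tests, the 15026 probe sets that exceeded percentile 40 of their own array on 2 or more of the 8 were fitted in limma 3.58.1 (R 4.3.3; 1 mean per group, eBayes with trend, Benjamini-Hochberg adjusted p under 0.05 within a comparison). On simulated data with known changes in few probe sets of the 4 h group alone, the procedure called 60% of log2 changes of 1 and 94% of log2 changes of 2. Far more were called in the data, 5354 for 4 h against uninduced, which changes the adjustment, so these shares need not hold there. A gene that was not called may still differ. Comparisons with the uninduced line share its 2 arrays, and 2 arrays per group limit precision.

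The members and lists were chosen with earlier results of these data known; roles, the ribosome biogenesis list and the polymerase and organelle name searches were added after the members were seen, and name searches that caught unrelated genes were dropped after their values had been seen. Named by rule were the 30 single-gene members with the largest smaller rise, members in the earlier families, and 3 on each side of the threshold. Replicate numbers did not pair the samples: deviations of same-numbered arrays correlated at -0.064 to 0.033. Alternatives were other pseudocounts, quantile normalization, other filters and minimum levels, a replicate block and leaving out each array.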

Additional observations from a re-analysis of the deposited data

How the results depend on the processing

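The number of members, 271, was 286 with a pseudocount of 1 and 241 with 100, of which 228 and 202 were among the 271, 269 (246 shared) after quantile normalization, 292 with no minimum level, 214 with a minimum of 500 and 270 with logs averaged per array. Leaving out 1 array at a time gave 243 to 276 members, 191 to 250 of them shared.

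Leaving out 1 array gave 3946 to 5562 calls for 4 h against uninduced (5354 with all arrays), 2947 to 4893 for wild type against uninduced (4679), 1728 to 2435 for 1 h against uninduced (2504) and 498 to 1113 for 4 h against wild type (996). The counts fell by over 1.5 times without wild type replicate 1 (2947 for wild type against uninduced, 528 for 4 h against wild type) and, for 4 h against wild type, also without wild type replicate 2 (498), 4 h replicate 1 (632) or 4 h replicate 2 (583); the fits with fewer arrays have fewer samples. With the replicate number as a block the 4 counts were 5295, 4608, 2491 and 992, and that block changed no call count by over 1.5 times.

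Of the 15 ribosome biogenesis genes outside the members, 10 to 12 were called higher at 4 h and 11 to 12 in wild type when an array was left out, and 12 and 12 under the pseudocounts, normalization, filters and block. RRP41 lost its call without any 1 array of the groups compared, AT5G41190 lost its call at 4 h without 4 h replicate 2 (adjusted p = 0.066, limma), and without that array AT5G18180 was called lower, by -1.17 (adjusted p = 0.025). The cause was not tested. The lower call of PYK10 at 4 h ended with no filter, with quantile normalization and without 4 h replicate 2 or any 1 of the uninduced and wild type arrays; changes in the other lists stand beside their counts. None of the 2632 values of 94 role-assigned or leading members changed sign, which their choice by a rise of at least 1 made likely. Of these values, 224 moved by more than 1 SD between replicates, and the lowest was 0.664, under the threshold of the rule. The planned motif search in promoters was not run, as no promoter sequences were used here. Between 2 replicates no outlier can be told, and low signals have no detection call.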
